A study of Mus musculus with 7 samples.

Results

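This account covers the RNA regions recovered with lacZ probes, and not with lnc-31 probes, from C2C12 cells, an established mouse myoblast line. Of 476 regions (peaks) in the list of the lacZ pull-down, 423 shared no base with any of the 596 peaks of the lnc-31 pull-down, and these 423 lacZ peaks are described here; the other 53 overlapped a lnc-31 peak. Overlap was judged on mm10 coordinates with strand ignored, because the lists give no strand. The peaks were chosen by the measured overlap of the 2 lists, so their absence from that list is the rule and not a result.

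The study pulled down lnc-31, a long non-coding RNA, from myoblasts with biotinylated antisense probes (called ODD in the labels) and, as the aspecific control, with probes against lacZ. RNA-seq of proliferating cells, with total RNA as the template, had 2 libraries after a scrambled siRNA and 2 after an siRNA against lnc-31. Each probe set had 1 library, so a difference between the lacZ and lnc-31 lists cannot be told apart from a difference between those libraries, and no test was possible between them. An input library was sequenced as well and was not analysed here. All samples were the same cell line, and no sample carried another allele or treatment by its labels. The read depth of the pull-downs and of the siRNA libraries is unknown from these files. Of 12 myoblast and muscle markers, 11 had a row in the expression table, all at 1 FPKM or more (FPKM scales the fragments of a gene by its transcript length and by library depth). The 3 epithelial markers had no row. Of the other marker lists, 2 of 5 fibroblast, 2 of 4 neural, 1 of 4 adipocyte and 1 of 5 blood and endothelial markers stood at 1 FPKM or more, with sums in each library of 10.5 to 18.2, 24.3 to 28.6, 9.47 to 11.4 and 1.14 to 1.65 FPKM.

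In an antisense pull-down, biotinylated oligonucleotides base-pair with an RNA and are drawn onto streptavidin beads together with what is bound to it. The lacZ gene is bacterial and mouse cells lack it, so RNA recovered with lacZ probes is the background of the method: RNA that sticks to beads, that pairs by chance with a probe, or that is abundant in the lysate. Total RNA holds spliced mRNA, unspliced pre-mRNA with its introns, and long non-coding RNAs, some of which, such as Neat1 and Xist, stay in the nucleus.

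No genome was used here, so the letters of a peak could be read only where it reached a RefSeq promoter window (250 bases before to 50 bases after a gene's start). Only 3 of the 423 peaks reached one of 32851 such windows, against 1 of the 53 shared lacZ peaks and 18 of the 542 lnc-31 peaks that overlap no lacZ peak. All 3 windows are printed because they hold the readable sequence of these peaks. They are in RefSeq's GRCm38.p6, the assembly mm10 is built on, 5′ to 3′ on the strand of the gene named, with the bases covered by the peak in capitals. The first is at chr10:120461649-120461948 (plus strand, a downstream start that RefSeq gives for the predicted gene Gm51785, within that gene) inside Hmga2, a chromatin protein gene. The second is at chr5:99976478-99976777 (minus strand, start of the predicted gene Gm42127) inside Hnrnpd, which encodes an AU-rich element binding protein. The third is at chrX:103483184-103483483 (minus strand, start of Xist, the RNA of X inactivation).
Gm51785 window: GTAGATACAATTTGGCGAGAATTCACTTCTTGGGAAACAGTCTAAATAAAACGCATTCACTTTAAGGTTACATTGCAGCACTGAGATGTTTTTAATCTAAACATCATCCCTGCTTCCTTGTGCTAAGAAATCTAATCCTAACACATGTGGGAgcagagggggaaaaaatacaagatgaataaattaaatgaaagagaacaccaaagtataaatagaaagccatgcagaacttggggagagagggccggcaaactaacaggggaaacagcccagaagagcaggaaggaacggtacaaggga
Gm42127 window: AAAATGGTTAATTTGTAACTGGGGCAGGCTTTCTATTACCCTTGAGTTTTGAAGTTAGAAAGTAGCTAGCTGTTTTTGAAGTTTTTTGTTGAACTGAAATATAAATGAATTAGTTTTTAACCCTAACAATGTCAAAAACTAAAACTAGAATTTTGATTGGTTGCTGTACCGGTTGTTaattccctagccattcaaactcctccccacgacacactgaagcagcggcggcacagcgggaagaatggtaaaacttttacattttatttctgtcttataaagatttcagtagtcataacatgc
Xist window: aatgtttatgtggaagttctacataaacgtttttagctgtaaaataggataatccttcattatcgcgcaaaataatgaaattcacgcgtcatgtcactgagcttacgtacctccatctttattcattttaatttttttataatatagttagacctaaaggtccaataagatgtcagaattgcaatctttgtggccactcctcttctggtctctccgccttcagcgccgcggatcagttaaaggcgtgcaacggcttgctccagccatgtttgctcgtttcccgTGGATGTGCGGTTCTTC

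The Hmga2 peak (chromosome 10, 120461601 to 120461800) covered 152 bases of its window, of which 36.8% were G or C. The Hnrnpd peak (chromosome 5, 99976601 to 99976800) covered 177 bases, with 31.1% G or C. The median G or C content of all promoter windows was 52.7%, above these values for the Hmga2 and Hnrnpd peaks. The Xist peak (chromosome X, 103483001 to 103483200) covered only the last 17 bases of its window, at the 5′ end of the Xist RNA, with 52.9% G or C. None of the 423 peaks overlapped a RefSeq miRNA hairpin.

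The peaks were short. All peak edges lay on a grid of 200 bases, and 344 of the 423 peaks (81.3%) were 1 window of 200 bases wide. A further 72 (17.0%) were 400 bases, 7 (1.65%) were 600 bases and none was wider. Of the 542 lnc-31 peaks that overlap no lacZ peak, 369 (68.1%) were 200 bases wide, 41 were wider than 600 bases and the widest spanned 2600 bases. The 423 peaks covered 101.8 kb in all, with a mean width of 241 bases, and those 542 lnc-31 peaks covered 184.8 kb with a mean of 341 bases. The 53 shared lacZ peaks were wider (mean 457 bases), but a wide peak overlaps another list more readily, so the rule itself bears on this width.

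The 7 peaks of 600 bases lay in Ext1 (chromosome 15, 53278601 to 53279200), Luc7l2, Lgr4, Nsmce2, Cald1 and Ywhaz, and at chromosome 17, 13591001 to 13591600, in no annotated gene. Luc7l2 encodes a splicing factor, Lgr4 a receptor for R-spondins, Nsmce2 a SUMO ligase, Cald1 the actin-binding protein caldesmon and Ywhaz a 14-3-3 adaptor protein. Next in width, among the peaks of 400 bases with the lowest column 7, came 2 more in Ext1 and 1 in Gpc6.

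Column 7 of the lists ran from 6.52e-05 to just under 0.01 in the 423 peaks, with a median of 0.00104 and quartiles of 0.000613 and 0.00181. No source names this column, and it was read as the authors' p-value from its range alone. The 542 lnc-31 peaks outside the lacZ list had a lower median of 0.000660 and a lowest value of 2.05e-07. A value of 0.001 or less was held by 210 of the 423 peaks (49.6%) and by 302 of the 542 (55.7%). The lowest value among the 423 belonged to a 200-base peak in Ezh2, the methyltransferase of Polycomb repression (chromosome 6, 47574401 to 47574600). The next were 1 peak that lies in both Syn3 and Timp3, 1 in Prkca and 3 in Ext1, all at 0.000209. Then came 1 more in Ext1 at 0.000234, and 1 each in Ext1, Snd1 and Gm33272 at 0.000258. Wider peaks had lower values, with medians of 0.00106 at 200 bases, 0.000844 at 400 bases and 0.000756 at 600 bases. The values were coarse: 213 of the 423 peaks shared theirs with another, and the most frequent, 0.000698, stood on 16 peaks.

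At the edge of the rule, 4 peaks touched a lnc-31 peak end to end without sharing a base: 1 in Srek1, 1 in Hnrnpa3 and 2 in Xist and Tsix. In all, 15 peaks lay within 1000 bases of a lnc-31 peak and 62 within 10 kb. Just outside the rule, 34 of the 53 shared lacZ peaks overlapped by exactly 200 bases, 1 window, and none by less. These 34 had a median width of 200 bases, and their column 7 ran from 0.000200 to 0.00983.

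Nearly all the peaks lay in genes. RefSeq gene spans, exons and introns together, held 413 of the 423 (97.6%), and 10 lay outside; 31 lay in more than 1 gene, where the host cannot be told apart. Protein-coding genes held 386 peaks (91.3%), and 27 lay only in genes of long non-coding or antisense RNA. The peaks had 226 host genes, of which 210 were protein-coding, 15 gave long non-coding or antisense RNA and 1 was a pseudogene. Of these hosts, 152 held 1 peak, 34 held 2 and 40 held 3 or more. The 542 lnc-31 peaks outside the lacZ list had 220 hosts, and 18 genes were in both sets (7.96% of the 226 and 8.18% of the 220). Of all RefSeq genes at 1 FPKM or more with scrambled siRNA, 1.81% held such a lnc-31 peak and 1.90% a peak of the set. A shared lacZ peak lay in 24 of the 226 hosts.

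The host genes were long, and their RNA was more abundant than that of the median gene. Their median length was 84.9 kb (3.62 to 1185 kb), against 22.7 kb over the 10858 RefSeq genes that had an expression row of their own at 1 FPKM or more with scrambled siRNA. Their median level with scrambled siRNA was 35.6 FPKM over the 210 hosts with a row (quartiles 17.2 and 79.0), against 14.5 FPKM over the same 10858 genes. Hosts of the 542 lnc-31 peaks had a median length of 38.8 kb and a median level of 14.4 FPKM. Of the 210 lacZ hosts with a row, 44 stood at 100 FPKM or more and 2 were below 1 FPKM. The only peak of 1 of these 2, Rec114, also overlapped a more abundant gene, Nptn. Split at the medians of the 10858 genes, 153 hosts (72.9%) were both long and abundant, where 22.9% of all genes were. Only 16 hosts (7.62%) were short and abundant, where 27.1% of all genes were. A further 38 (18.1%) were long but not abundant, and 3 (1.43%) were neither: 1700109K24Rik, Apol8 and Plekhf2, named after their values were seen.

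**Figure D1:**
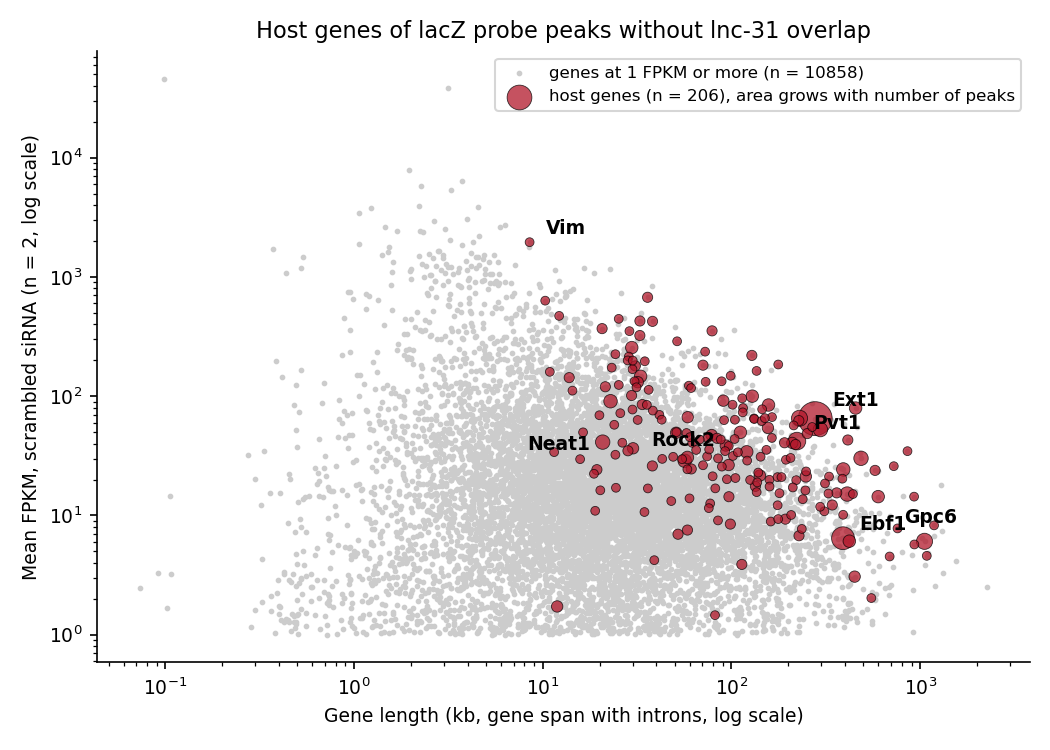
Gene length (kb, log axis) against mean FPKM with scrambled siRNA (log axis) for the 10858 genes at 1 FPKM or more (grey) and the 206 of them that hold a lacZ peak without lnc-31 overlap (red). The hosts crowd into the upper right. Of the 210 hosts with a row, a few of them not plotted, 72.9% stood above both medians.

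The share of genes with a peak rose with length at every step: 0.0354% of genes under 10 kb, 0.601% from 10 to 20 kb, 1.6% from 20 to 50 kb, 3.13% from 50 to 100 kb, 5.15% from 100 to 200 kb, 9.42% from 200 to 400 kb and 16.4% at 400 kb or more. For lnc-31 peaks outside the lacZ list the same shares ran from 0.674% under 10 kb to 5.17% at 400 kb or more. A longer gene offers more windows. Per megabase of gene the counts did not climb steadily with length, at 0.0702 under 10 kb, 0.535, 0.815, 0.691 and 0.555 in the next 4 classes, 1.39 from 200 to 400 kb, where Ext1 is, and 0.674 at 400 kb or more. By level, genes at 1 to 3 FPKM held 0.0653 peaks per megabase, genes at 300 to 1000 FPKM held 7.99 and the 80 genes at 1000 FPKM or more held 3.11. These values rest on few pairs of a peak and a host gene, namely 5, 16 and 1. With level, the share of genes holding a lacZ peak rose from 0.223% at 1 to 3 FPKM to 5.45% at 100 to 300 FPKM, and stood at 1.25% at 1000 FPKM or more. Those most abundant genes are short: the 100 with the highest FPKM (860 or more) had a median length of 3.31 kb, and only 1 of them, Vim, held a peak. Of the 100 longest genes (415.2 kb or more, median 6.07 FPKM), 17 held a peak, and 4 held a lnc-31 peak outside the lacZ list. Where length and level met, at 100 kb or more and 50 FPKM or more, 24 of 73 genes (32.9%) held a lacZ peak and 2 of 73 (2.74%) such a lnc-31 peak. Under 20 kb, 7 of 1134 genes at 50 FPKM or more (0.617%) did.

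**Figure D2:**
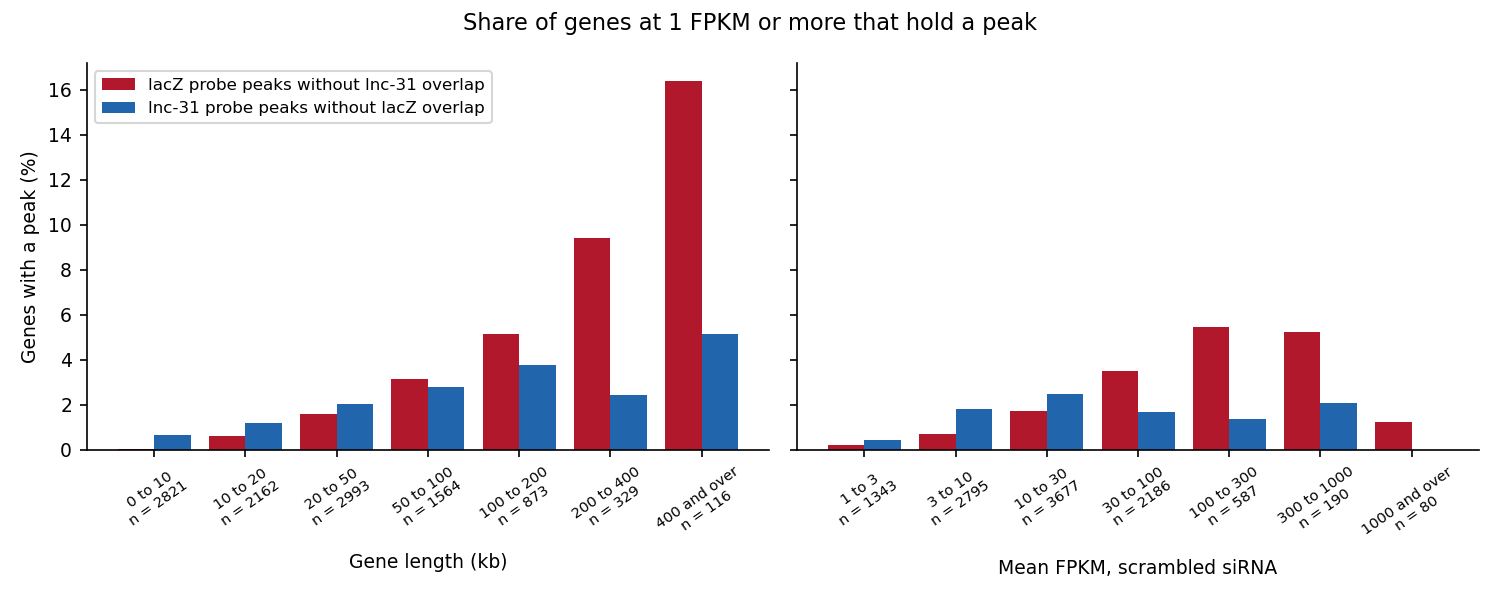
Percent of genes that hold a peak, by gene length and by mean FPKM with scrambled siRNA, for lacZ peaks without lnc-31 overlap and for lnc-31 peaks without lacZ overlap. The lacZ share climbs from 0.0354% under 10 kb to 16.4% at 400 kb or more, while the lnc-31 share ends at 5.17%.

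Among the hosts themselves, the number of peaks tracked neither quantity closely. Spearman's rho of the number of peaks with host length was 0.12 over 226 hosts and with FPKM 0.04 over 210, both given as descriptions across genes, which are not replicates. Host length and host FPKM ran against each other (rho -0.48 over the 210), more than over all 10858 genes (rho -0.11). Hosts were kept for holding a peak, which was more frequent in longer genes and, except at the highest levels, in more abundant ones. That selection by itself bears on the rhos among hosts, so no conclusion is drawn from them. The longest hosts had low levels: Cdh13 (1185 kb) averaged 8.25 FPKM, Nrg1 (1084 kb) 4.58, Gpc6 (1055 kb) 6.06, Immp2l (931.5 kb) 5.71 and Cdh18 (928.6 kb) 14.4. The most abundant hosts were shorter. Vim, the intermediate filament vimentin, averaged 1956 ± 60.1 FPKM (SD, n = 2) over 8.52 kb, followed by Col1a2 (675 FPKM), Hnrnpa3 (632), Hnrnpk (471), Nap1l1 (445), Ywhaz (427), Col3a1 (424), Emp1 (369), Eif3h (353) and Lmna (351). The lowest hosts were Rec114 (0.551 FPKM), Apol8 (0.914), Gprin3 (1.46), 1700109K24Rik (1.72) and Rad51b (2.03). All 3 peaks of 1700109K24Rik lay within Rbfox2 as well, so the low level of the former is not that of the only RNA there. The same holds for Rec114, whose only peak also overlapped Nptn, at 178 and 186 FPKM with scrambled siRNA. Besides Vim and Hnrnpa3, the shortest hosts were Lrrc4 (3.62 kb, inside Snd1), Morf4l1-ps1 and D130037M23Rik, which had no row.

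Peaks clustered along some genes. Of the 423, 177 (41.8%) had another of the set within 10 kb and 55 (13.0%) within 1 kb; the median distance to the nearest was 19.2 kb. The 542 lnc-31 peaks outside the lacZ list lay closer together, with 371 (68.5%) within 10 kb of another, 211 (38.9%) within 1 kb and a median of 2.2 kb. Joining peaks at most 10 kb apart gave 52 runs of 2 or more, of which 24 had 3 or more and held 121 peaks, and 246 peaks stood alone. The 14 hosts with 5 or more peaks held 125 of the 423 (29.6%).

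Ext1 led. This gene encodes a glycosyltransferase that builds heparan sulfate chains and is known for a very long first intron. It held 42 of the 423 peaks (9.93%), 6 shared lacZ peaks and no other lnc-31 peak in 277.9 kb (chromosome 15, 53068261 to 53346183), or 15.1 peaks of the set per 100 kb. The peaks ran over 186.2 kb, 67.0% of the gene, with gaps of 200 to 12800 bases and a median gap of 3400 bases. In width, 32 were 200 bases, 9 were 400 and 1 was 600. Their median column 7 was 0.000749, against 0.00106 for the peaks elsewhere. Ext1 stood at 63.6 and 66.1 FPKM with scrambled siRNA and at 63.9 and 63.1 FPKM with lnc-31 siRNA, so the groups overlapped.

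Ebf1, a transcription factor gene, came next with 18 peaks and no lnc-31 peak, in 390.0 kb at only 6.49 and 6.39 FPKM with scrambled siRNA and 6.61 and 6.55 FPKM with lnc-31 siRNA. Its peaks filled 125.4 kb, from 7.33% to 39.4% of the way from its 5′ end, with a median gap of 5800 bases. In Ebf1, 15 peaks were 200 bases wide and 3 were 400, with a median column 7 of 0.000963. Pvt1, a long non-coding RNA gene next to Myc, held 10 peaks over 192.6 kb, 86.7% of its span, and 1 shared lacZ peak. Its row, which merges Pvt1 with 3 predicted genes, read 52.4 and 31.6 FPKM with scrambled siRNA and 42.0 and 28.3 with lnc-31 siRNA, a spread within each group as wide as that between them. The neighbouring Myc itself held no peak at 34.7 and 32.8 FPKM with scrambled siRNA.

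**Figure D3:**
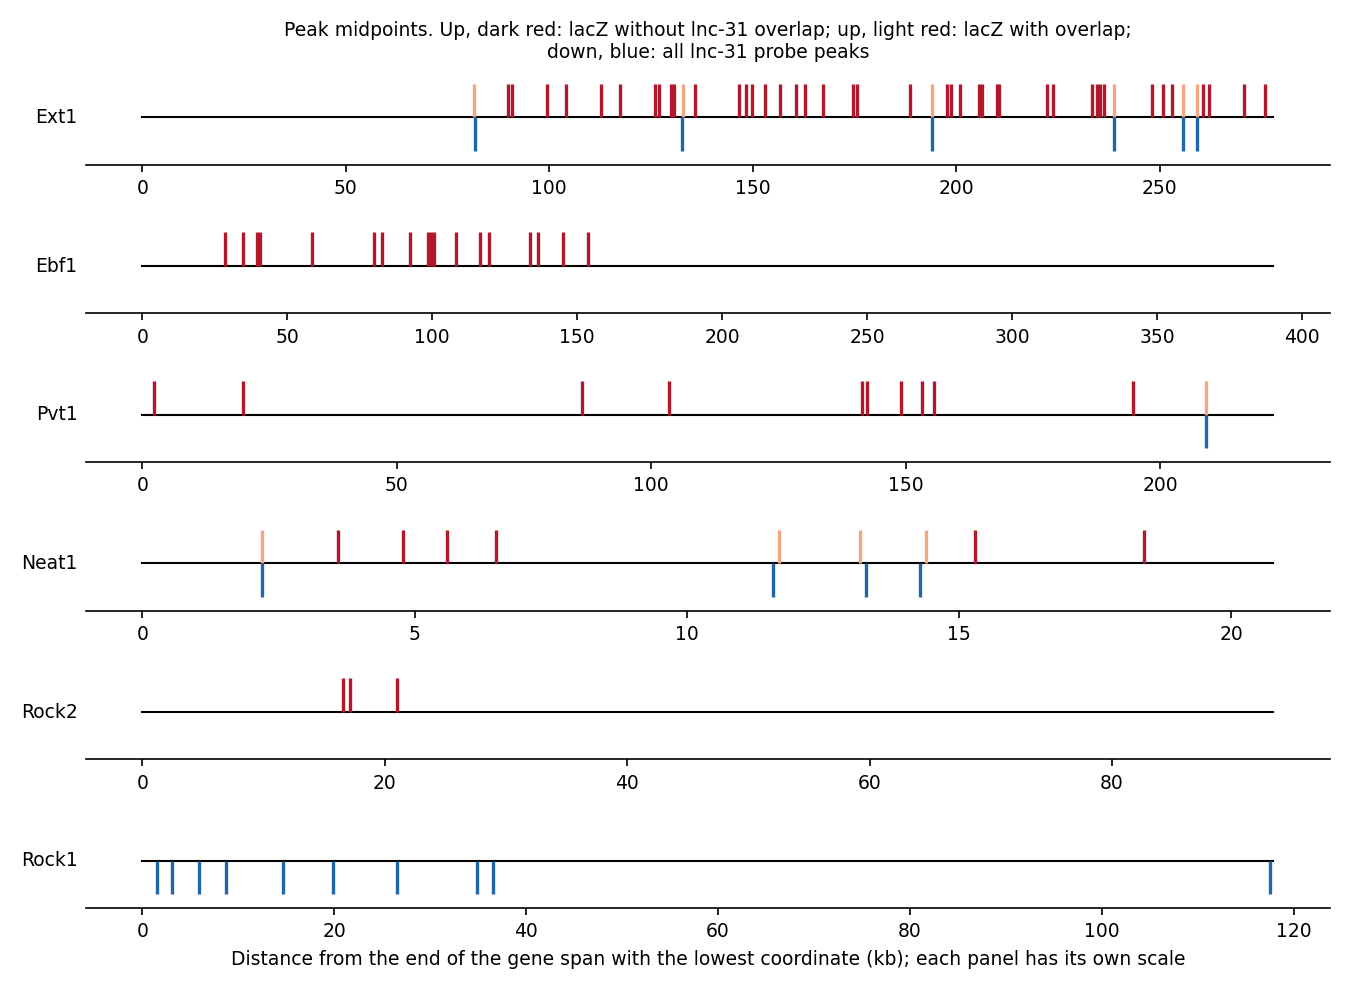
Peak midpoints along Ext1, Ebf1, Pvt1, Neat1, Rock2 and Rock1, as distance from the lower-coordinate end of each gene in kb. Marks above the line are lacZ peaks (dark red without lnc-31 overlap, light red shared) and marks below are lnc-31 peaks (blue). Ext1 carries 42 peaks of the set, Rock2 3 and Rock1 none.

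Most of the other hosts with 4 or more peaks were long. Gpc6, a glypican that carries heparan sulfate, held 8 peaks over 549.6 kb at 5.90 and 6.23 FPKM with scrambled siRNA. Rbfox2, a splicing regulator, held 8, of which 5 lay in it alone, at 62.9 and 67.7 FPKM. There were 6 peaks each in Asap1 (an Arf GTPase-activating protein, 53.1 and 51.9 FPKM), Diaph3 (a formin, 30.9 and 29.4 FPKM), Prkca (protein kinase C alpha, 15.05 and 15.2 FPKM) and Neat1. Palld, which encodes the actin-associated protein palladin, held 5 within 17.4 kb of its 391.3 kb, of which 3 lay in it alone, at 24.3 and 24.3 FPKM. A further 5 lay where Fgf7, a growth factor gene, and Fam227b overlap on opposite strands, and without strand the 2 cannot be told apart. Col5a2, a fibrillar collagen, held 4 over 105.8 kb, at 98.3 and 102 FPKM.

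Of the 15 long non-coding or antisense hosts, Pvt1 held the most peaks but only 4.50 per 100 kb, and some shorter hosts held more per length. Neat1, the scaffold RNA of nuclear paraspeckles, held 6 peaks and 4 shared lacZ peaks in 20.8 kb, 28.9 peaks of the set per 100 kb, at 35.1 and 47.3 FPKM with scrambled siRNA and 33.1 and 38.2 with lnc-31 siRNA. Xist held 5 peaks, 2 shared lacZ peaks and 3 lnc-31 peaks outside the lacZ list in 22.9 kb; its antisense partner Tsix covers the same bases, and without strand the 2 cannot be told apart. The row that includes Xist read 88.2 and 93.2 FPKM with scrambled siRNA and 80.7 and 79.5 FPKM with lnc-31 siRNA. Gm33272, a predicted non-coding gene on chromosome Y, held 4 peaks and 5 shared lacZ peaks in 13.2 kb, 30.4 peaks of the set per 100 kb, and had no row. No gene of chromosome Y was among the 10858 genes at 1 FPKM or more. Malat1, the neighbour of Neat1 and another nuclear RNA, held no peak of either list at 28.5 and 28.0 FPKM. Of the 17 nuclear and snoRNA-host RNAs on the list that reached 1 FPKM, 3 held a peak (17.6%), namely Neat1, Pvt1 and Xist, beside 1.90% of all 10858 genes. That list was drawn up with earlier results of these data known, so its share is a description only.

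Gene lists chosen by function or, for long-intron genes, by structure differed in their share of hosts, beside 1.90% of all 10858 genes. They were drawn up with earlier results of these data known, so the shares are descriptions only. The lists differed in length and level too, and a part of function apart from these was not tested. By length alone, 0.0354% of all genes under 10 kb held a peak, 0.601% from 10 to 20 kb, 1.6% from 20 to 50 kb and 16.4% at 400 kb or more. Long-intron genes (47 at 1 FPKM or more, median 467 kb) had 9 hosts (19.1%) with 60 peaks, of which 42 were in Ext1: Diaph3, Exoc4, Ext1, Immp2l, Lpp, Rad51b, Trio, Zbtb20 and Zfpm2. Extracellular matrix genes (40, median length 49.3 kb) had 6 hosts (15%): the collagens Col1a2, Col3a1 and Col5a2, the cross-linking enzyme Lox, the glycoprotein Fstl1 and the protease inhibitor Timp3. A 7th, the fibronectin gene Fn1, held 1 peak and had no row. Cytoskeleton genes (45, median 17.9 kb and 168 FPKM) had 5 hosts (11.1%) with 1 peak each: Cald1, Iqgap1, Lmna, Vcl and Vim. None of 147 ribosomal protein and translation factor genes (median 2.72 kb and 797 FPKM) and none of 30 chaperone and metabolic housekeeping genes (median 13.1 kb and 396 FPKM) held one. Eef1a1 stood at 5196 and 5483 FPKM, Gapdh at 2201 and 2171 and Actb at 1520 and 1527 with scrambled siRNA, all without a peak of either list. Vim was the exception at this level, with 1 peak of the set and 3 shared lacZ peaks.

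Several hosts encode RNA-binding proteins. A list of 80 such genes at 1 FPKM or more, drawn by name stem after the hosts had been seen and so given without weight, had 17 hosts (21.3%) with 42 peaks. Rbfox2, Rbm39, Pcbp2 and Mbnl1 held the most. Rbm39, a splicing coactivator, held 4 peaks within 7.0 kb at 147 and 147 FPKM with scrambled siRNA. Pcbp2, a poly(C)-binding protein, held 4 over 21.2 kb at 264 and 247 FPKM, and Mbnl1, the muscleblind splicing factor, held 4 over 85.0 kb at 84.6 and 84.0 FPKM. The median length of this list, 23.4 kb over all its genes, was close to the 22.7 kb of all genes, and its median level of 48.4 FPKM was above the 14.5 FPKM of all genes.

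Chromosome 15 held 119 of the 423 peaks (28.1%) and 38 of the host genes. By gene span this was 5.24 peaks per megabase on chromosome 15, followed by 1.46 on chromosome 14, 1.18 on chromosome 19 and 0.982 on chromosome 11. The 304 peaks on all other chromosomes came to 0.596 per megabase. Ext1 alone held 42 of the 119, and without it 77 of the remaining peaks (20.2%) were on chromosome 15. Of 450 chromosome 15 genes at 1 FPKM or more, 35 held a peak (7.78%), against 1.64% of such genes elsewhere. The full lists, before the overlap rule, differed in the same way: 131 of all 476 lacZ peaks (27.5%) but 32 of all 596 lnc-31 peaks (5.37%) were on chromosome 15. The chromosome with the most lnc-31 peaks outside the lacZ list per megabase was X (3.34), then 1 (2.27).

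The peaks sat in the middle of chromosome 15. In steps of 10 Mb from its start, the counts were 1, 2, 6, 11, 9, 52, 18, 11, 1, 0 and 8, with Ext1 in the step of 52. From 20 to 30 Mb, 4 of 10 expressed genes held a peak (40.0%), and from 50 to 60 Mb 8 of 32 did (25%). From 40 to 50 Mb 4 of 8 did, and from 60 to 70 Mb 4 of 12 (33.3%). From 70 to 80 Mb the share was 2.75%, and from 80 to 90 Mb 1.18%. Gene length, which these shares ignore, differed between steps. The 10 genes from 20 to 30 Mb spanned 2.23 Mb, in a step with 6 peaks. The 109 from 70 to 80 Mb spanned 2.75 Mb, with 11 peaks, so more per megabase of gene. From 50 to 60 Mb there were 52 peaks on 2.19 Mb of gene, and from 80 to 90 Mb 1 on 3.32 Mb. Chromosome 15 genes also stood higher in the siRNA libraries: their median level was 24.4, 24.9, 24.4 and 24.9 FPKM in scrambled siRNA 1 and 2 and lnc-31 siRNA 1 and 2, against 14.0, 14.4, 13.9 and 14.2 FPKM for genes elsewhere. The copy number of chromosome 15 in these cells was not measured here, and its part in the peaks was not tested. Without chromosome 15, the hosts had a median length of 83.0 kb and a median level of 33.9 FPKM, and 16 of 61 genes (26.2%) at 100 kb and 50 FPKM or more held a peak.

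**Figure D4:**
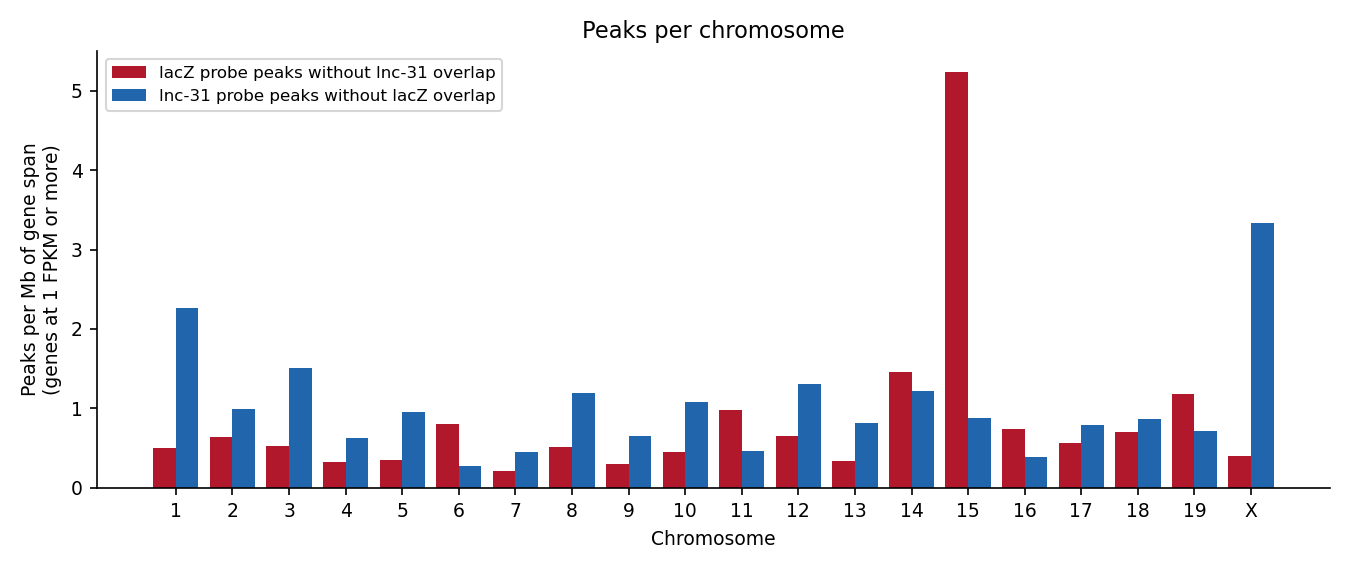
Peaks per megabase of gene span on each chromosome (Y not shown) for lacZ peaks without lnc-31 overlap and lnc-31 peaks without lacZ overlap. Chromosome 15 stands at 5.24 for the lacZ set, and the next chromosome, 14, at 1.46.

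Along their genes, the peaks lay toward the 5′ side and away from the ends. For the 236 peaks in a single gene of known strand, 4 equal stretches of the gene from 5′ to 3′ held 81, 63, 58 and 34, with a median position of 38.6% of the way. Here, as for the lnc-31 peaks below, a gene with several peaks counts several times. Ebf1 alone gave 18 of the 236, all between 7.33% and 39.4% of its length. For 416 lnc-31 peaks outside the lacZ list these stretches held 55, 69, 97 and 195, with a median of 70.9%. Only 2 of the 236 peaks (0.847%) lay within 2 kb of the 3′ end, where the last exon of an mRNA is, against 90 of the 416 (21.6%). In genes longer than 20 kb these stretches held 77, 56, 54 and 33 of the set and 43, 53, 94 and 173 of the lnc-31 peaks. Ext1 and 60 other hosts had no strand in the tables used here and are not among these. Counting both ends needs no strand: 7 of 382 peaks (1.83%) were within 2 kb of either end of their gene, zones that on average make up 6.02% of the length of those genes, against 127 of 500 lnc-31 peaks (25.4%) in zones of 11.7%. Exons were not used here, so the split of peaks between exons and introns was not measured.

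**Figure D5:**
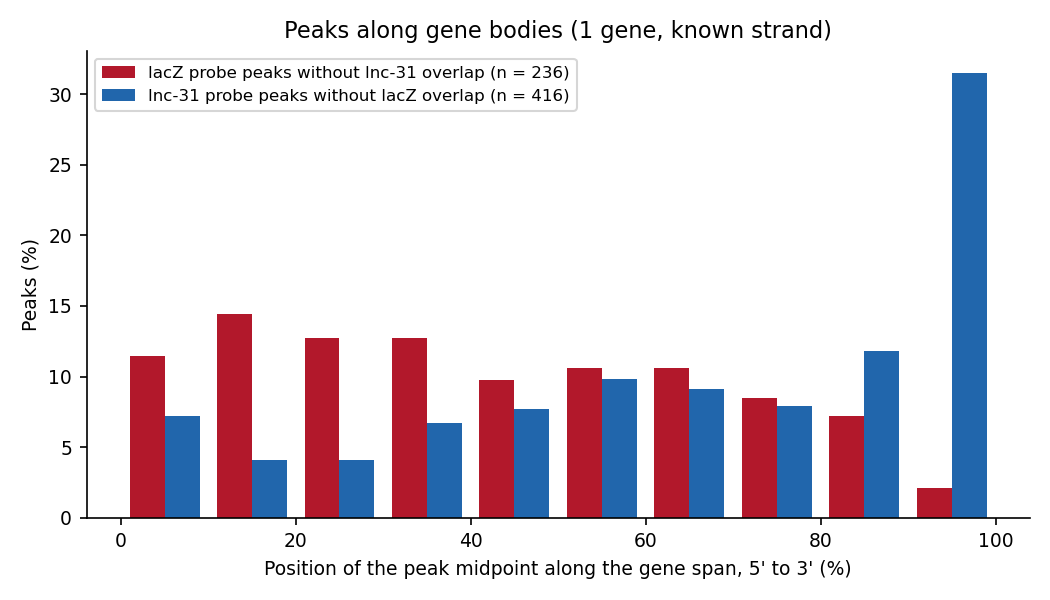
Position of peaks along their gene, from 0% at the 5′ end to 100% at the 3′ end, for 236 lacZ peaks without lnc-31 overlap and 416 lnc-31 peaks without lacZ overlap. The lacZ set is highest in the first 25% of the gene (81 peaks) and the lnc-31 set in the last 25% (195 peaks).

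The related kinases ROCK1 and ROCK2, which act on the actin cytoskeleton, fell on opposite sides of the lists. Rock2, singled out after its values were seen, held 3 peaks of the set within 4.8 kb (chromosome 12, 16911401 to 16916200) and no lnc-31 peak, at 38.7 and 38.4 FPKM with scrambled siRNA. Rock1, named in the study's title, held no lacZ peak and 10 lnc-31 peaks, at 16.6 and 17.1 FPKM. The Mir31 hairpin gene held no lacZ peak and 1 lnc-31 peak. Gm49890, the long non-coding gene of 32.2 kb that contains it (chromosome 4, 88909854 to 88942042), held no peak of the set, but 6 lacZ peaks that overlap a lnc-31 peak and 4 further lnc-31 peaks. Ybx1, an RNA-binding protein gene, held no peak of either list at 524 and 514 FPKM.

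The siRNA libraries, which the rule did not use, show whether the RNA of the host genes changed when lnc-31 was targeted. The row that includes Mir31 and an unnamed transcript read 13.4 and 15.6 FPKM with scrambled siRNA and 12.1 and 14.1 FPKM with lnc-31 siRNA, so the groups overlapped there; no label says whether this row holds the targeted RNA. Of 208 host rows compared by limma on log2(FPKM + 1), 32 (15.4%) passed an adjusted p of 0.05, with 11 of them raised and 21 lowered by lnc-31 siRNA treatment. Over all 11500 rows, 12.4% changed, 5.64% higher and 6.78% lower. The median log2 fold change was -0.01 for the host rows and -0.01 for all rows. The count rested on each library: without scrambled siRNA 1 or 2 it was 4 or 3 (1.92% or 1.44%, below the 2.51% or 2.26% of all rows), and without lnc-31 siRNA 1 or 2 it was 10 or 9 (4.81% or 4.33%, against 4.27% or 3.61% of all rows). With quantile normalization it was 50 (24.0%, against 16.8% of all rows), of which 27 were higher and 23 lower. The host share was thus above that of all rows in some fits and below it in others. Summed over the 11 rows, the myoblast and muscle markers stood at 623 and 669 FPKM with scrambled siRNA and at 861 and 888 FPKM with lnc-31 siRNA. The 2 of 5 fibroblast markers with a row summed to 10.5 and 11.6 FPKM against 16.3 and 18.2 FPKM. No marker gene held a peak of the set, and the part of these shifts in the calls of host genes was not tested.

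Of the 8 changed hosts with the largest fold changes, most were lower with lnc-31 siRNA. E2f3, a cell cycle transcription factor with 1 peak, stood at 20.2 and 22.4 FPKM with scrambled siRNA and 13.4 and 12.6 FPKM with lnc-31 siRNA. All values of the first group were above those of the second, and the log2 fold change was -0.67 (SE 0.067, limma adjusted p = 0.00794). Slc4a7, a bicarbonate transporter with 2 peaks, was higher with lnc-31 siRNA, at 20.4 and 20.6 FPKM against 13.9 and 14.8 FPKM (log2 fold change 0.48, limma adjusted p = 0.00916). E2f3 and Slc4a7 stayed past the threshold in all 10 alternatives run. Col3a1, with 2 peaks, rose from 415 and 433 FPKM to 554 and 545 FPKM (log2 fold change 0.37, limma adjusted p = 0.0113). Timp3 fell by 0.41 on the log2 scale (limma adjusted p = 0.0141), from 31.7 and 30.3 FPKM to 22.3 and 24.0 FPKM. The other 4 were lower, with log2 fold changes of -0.57 for Spata5, -0.51 for Tigit, -0.43 for Mpp6 and -0.40 for Zfp367. The peak of Tigit lies in Zbtb20 too, which stood at 7.46 and 8.11 FPKM against 7.40 and 8.15 FPKM. Leaving out 1 library ended the call of each of these 6 at least once, with limma adjusted p values of up to 0.0787 for Col3a1, 0.0747 for Timp3, 0.0640 for Spata5, 0.146 for Tigit, 0.0594 for Mpp6 and 0.0679 for Zfp367.

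Of the 14 hosts with 5 or more peaks, Diaph3 (-0.28, limma adjusted p = 0.0214), Fgf7 (-0.22, limma adjusted p = 0.0447) and Palld (-0.20, limma adjusted p = 0.0395) fell on the log2 scale with lnc-31 siRNA. Over all rows, 12.4% were called. Each Fgf7 peak lies in Fam227b as well. Ext1 differed by -0.03 (limma adjusted p = 0.68) and Ebf1 by 0.03 (limma adjusted p = 0.80), differences not past the threshold. Pvt1, Gpc6, Rbfox2, Asap1, Neat1, Prkca and the row that includes Xist did not pass either, and Fam227b and Tsix had no row. Hmga2, the host of the first printed window, rose from 80.9 and 78.1 FPKM to 93.1 and 95.3 FPKM (log2 fold change 0.24, limma adjusted p = 0.024). Hnrnpd, the host of the second, stood at 168 and 179 FPKM against 161 and 163 FPKM (log2 fold change -0.10, limma adjusted p = 0.22), a difference that did not pass. The calls of Diaph3, Fgf7, Palld and Hmga2 were not followed with 1 library left out.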

How the data were processed

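Peak lists for 1 lacZ and 1 lnc-31 probe library and an FPKM table for 4 siRNA libraries were used as deposited. The submitters' processing notes name mm10, CASAVA, Trimmomatic, cutadapt, Bowtie2, TopHat2, Picard, Cuffdiff and BWA, without roles. The program that called the peaks is not named by any source read. In the deposited lists, column 7 was read as a p-value from its range, and strand is empty. The deposited FPKM values, made by the authors, keep no depth. Peaks were compared with bedtools 2.31.1 (overlap of 1 base or more) and placed on RefSeq gene spans (GRCm38.p6). Genes that share an expression row with another gene (555) were left out of the background of 10858 genes. The siRNA groups were compared with limma 3.58.1 (R 4.3.3) on log2(FPKM + 1), rows averaging 1 FPKM or more, two-sided, Benjamini-Hochberg adjusted. This scale understates the change of low genes. The script was tested on simulated data. The labels do not say that libraries came from separate cultures, and a p-value here covers only the spread between these samples. Named were the 10 widest peaks, the 10 lowest in column 7, the 15 genes with the most peaks, the extremes of FPKM and length, the 8 largest called changes, listed host genes and a few genes set by name. Members and lists were chosen with earlier results of these data known. Alternatives varied the overlap, column 7, neighbour distance, gene assignment, pseudocount, filter, normalization, block and libraries. Other steps ran in Python 3.11.15 (numpy 2.4.6, pandas 2.3.3), and plots in matplotlib 3.10.9.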

Additional observations from a re-analysis of the deposited data

How the results depend on the processing

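With column 7 at 0.001 or less in both lists, 212 lacZ peaks overlapped no lnc-31 peak, of which 209 lay in genes, in 121 hosts, and 81 had a neighbour within 10 kb. Requiring the overlap to cover 50% or more of the lacZ peak left 431 peaks, and also removing those within 1000 bases of a lnc-31 peak left 408. With a neighbour distance of 1 kb the count was 55, with 50 kb 254, and without Ext1 (chosen after seeing the data) 135. Counting each peak once gave a median host level of 41.2 FPKM and a median host length of 133.9 kb. Without chromosome 15, also chosen after seeing the data, these medians over hosts were 33.9 FPKM and 83.0 kb. Without Ext1, 20.2% of the peaks were on chromosome 15. The changed hosts numbered 50 with quantile normalization (24.0%, against 16.8% of all rows), 33 with a pseudocount of 0.1 or 0.5 (15.9%, against 12.7% or 12.5%), 27 with no filter (12.9%, against 9.67%) and 37 at 5 FPKM or more (18.5%, against 16.0%). They numbered 3 to 10 with 1 library left out (1.44% to 4.81%, against 2.26% to 4.27%), when the lone library of a group is assumed to vary like the other group. Fewer samples remain in those fits. With the replicate number as a block, 39 host rows were called (18.8%, against 14.0% of all rows); the samples share only a number, since the deviations of same-numbered libraries correlated at r = -0.0944 over 11500 genes. Each probe set had 1 library of unknown depth, and host genes were assigned by position without strand, which limits every statement about the peaks to these libraries.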
